A study of Mus musculus with 6 samples.

Results

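Expression was examined for 10 genes of the receptors that read LPS, BAFF and IL-5, signals given in culture to class-switching B cells, with *Cd40* beside them. The genes were taken by name, from a list made with earlier results of these data known but by a rule that uses no measured value, and all 10 were found among the 46983 genes of the deposited table. The genes were *Tlr4* and *Ly96*, *Cd180* and *Ly86*, *Tnfrsf13b* and *Tnfrsf13c*, *Cd40*, and *Il5ra*, *Csf2rb* and *Csf2rb2*. The libraries were bulk RNA-seq of splenic B cells from wild-type (WT, n = 3) and *Hif1a* knockout (KO, n = 3) mice. KO mice carried 2 floxed *Hif1a* alleles and *Mb1*-cre, which acts from early B-cell development and is not limited to mature or switching cells. WT mice were littermates with either a single floxed allele and cre or both floxed alleles and no cre, and which library came from which is not given. All 6 cultures received the same IgA switch mixture for 3 days, made of LPS (5 μg/ml) and 10 ng/ml of each of the cytokines BAFF, TGF-β and IL-5, and no ages are given. The study's methods describe sorted CD21int CD23+ follicular B cells for such cultures, on the C57BL/6 background, and allow anti-IgM with anti-CD40 in place of LPS, whereas the labels of these samples give LPS. No unstimulated culture was analysed here, so every level is one after 3 days of stimulation, and nothing says whether the replicates came from separate animals or cultures. P-values therefore measure only the spread between these libraries, which may be technical.

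The receptors work as partnered chains. TLR4 (*Tlr4*) binds LPS only together with the secreted protein MD-2 (*Ly96*), and B cells carry a related pair, RP105 (*Cd180*) and its own partner MD-1 (*Ly86*), which tunes LPS responses in B cells. BAFF is a survival factor read by BAFF-R (*Tnfrsf13c*), and TACI (*Tnfrsf13b*) binds both BAFF and its relative APRIL. CD40 (*Cd40*) receives T-cell help and, like BAFF-R, feeds the noncanonical NF-κB pathway. IL-5 binds the α chain IL-5Rα (*Il5ra*), which signals through the common β chain (*Csf2rb*) shared with the IL-3 and GM-CSF receptors, and mice have a second β chain that serves IL-3 alone (*Csf2rb2*).

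The regions just before the start sites are shown for *Il5ra* and *Csf2rb2*, because *Il5ra* was the only receptor gene whose groups did not overlap and *Csf2rb2* was the most variable of the 10. Each window runs from 250 bases before to 50 bases after a RefSeq start site in GRCm38.p6. Capitals mark matches on either strand to 4 short motifs, namely the hypoxia response cores ACGTG and GCGTG, the STAT motif TTCNNNGAA and the Ets core GAGGAA. The *Il5ra* window lies at chr6:106748988-106749287 and the *Csf2rb2* window at chr15:78305672-78305971, both on the minus strand.
Il5ra: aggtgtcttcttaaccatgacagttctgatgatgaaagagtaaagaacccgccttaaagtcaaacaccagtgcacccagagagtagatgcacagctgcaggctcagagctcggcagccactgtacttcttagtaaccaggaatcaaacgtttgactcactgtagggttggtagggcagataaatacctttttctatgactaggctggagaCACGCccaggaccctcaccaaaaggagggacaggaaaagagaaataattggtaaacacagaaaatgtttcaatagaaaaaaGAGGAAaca
Csf2rb2: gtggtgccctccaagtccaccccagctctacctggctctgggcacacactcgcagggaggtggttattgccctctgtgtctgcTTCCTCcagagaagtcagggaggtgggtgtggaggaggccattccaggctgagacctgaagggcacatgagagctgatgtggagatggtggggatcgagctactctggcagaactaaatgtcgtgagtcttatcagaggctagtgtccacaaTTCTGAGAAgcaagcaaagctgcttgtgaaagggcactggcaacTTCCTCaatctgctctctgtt
In the *Il5ra* window GCGTG was read on the opposite strand at bases 211 to 215, and GAGGAA on the printed strand at bases 292 to 297. The *Csf2rb2* window held TTCNNNGAA at bases 236 to 244 and GAGGAA on the opposite strand at bases 84 to 89 and 280 to 285. Windows were found for 6 of the 10 genes, namely *Cd180* with 2 windows, *Ly86*, *Tnfrsf13b*, *Tnfrsf13c*, *Il5ra* and *Csf2rb2*, and *Tlr4*, *Ly96*, *Cd40* and *Csf2rb* were not in the promoter table used. Of these 7 windows, 0 held ACGTG, 1 held GCGTG, 1 held TTCNNNGAA and 2 held GAGGAA. Among all 32851 windows of this length the shares were 19.6%, 32.4%, 8.30% and 28.3%. A match describes letters in a window and is no measured binding site.

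The libraries held 25.03 to 37.22 M counted reads, and 1 read on a gene of 1 kb was worth 0.0269 to 0.0400 FPKM. FPKM (fragments per kilobase of gene length and per M mapped reads) is the unit of every level unless another is named. The first principal component of the tested genes took 54.7% of the variance and set WT replicates 2 and 3 (26.2 and 25.9) apart from WT replicate 1 (−15.7) and the 3 KO libraries (−19.5 to −7.10), so results are also given without WT replicate 1. Counted over the whole gene, *Hif1a* itself read 36.5 to 49.8 FPKM in WT and 45.6 to 52.8 in KO, which does not check the genotype because a floxed allele loses only part of the gene. The labels were kept as given, and if the label of WT replicate 1 were wrong, every WT mean and every difference between genotypes would change. *Pax5*, the transcription factor that keeps B-cell identity, was at 428.0 to 606.7 FPKM over the 6 libraries. The summed level of 15 macrophage and monocyte markers was 95.2, 206.9 and 142.8 FPKM in WT replicates 1, 2 and 3 and 96.4 to 105.6 FPKM in KO, and that of 9 neutrophil markers was 42.0 FPKM in WT replicate 1 and at most 0.606 FPKM elsewhere. In bulk RNA, fewer cells of a type and less RNA per cell cannot be told apart.

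The receptor genes spanned a wide range of levels, with the BAFF receptors and the RP105 pair at the top and the TLR4 pair and the IL-5 α chain at the bottom. TACI (*Tnfrsf13b*) stood highest by far, with a mean over the 6 libraries of 1063 ± 32.4 FPKM (SD, n = 6), rank 102 of the 13312 genes tested. BAFF-R, MD-1 and RP105 formed a middle tier at 252.9 ± 30.4, 238.1 ± 13.4 and 214.2 ± 11.5 FPKM (SD, n = 6). *Cd40* followed at 82.4 ± 8.73 FPKM and the common β chain *Csf2rb* at 45.4 ± 7.53 FPKM (SD, n = 6). The lowest tier held the IL-3-specific β chain *Csf2rb2* (9.73 ± 2.57), *Tlr4* (8.28 ± 1.03), *Il5ra* (7.73 ± 0.634) and *Ly96* (7.58 ± 1.29 FPKM, SD, n = 6), at ranks 7756 to 8367. Between neighbours in this order, the library ranges of *Tnfrsf13c*, *Ly86* and *Cd180* overlapped, as did those of *Csf2rb2*, *Tlr4*, *Il5ra* and *Ly96*, so most neighbours within each tier did not differ beyond their spread. *Ly86* was nevertheless above *Cd180* in each of the 6 libraries. The steps from *Tnfrsf13b* to *Tnfrsf13c*, from *Cd180* to *Cd40*, from *Cd40* to *Csf2rb* and from *Csf2rb* to *Csf2rb2* were apart in all 6 libraries.

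**Figure D1:**
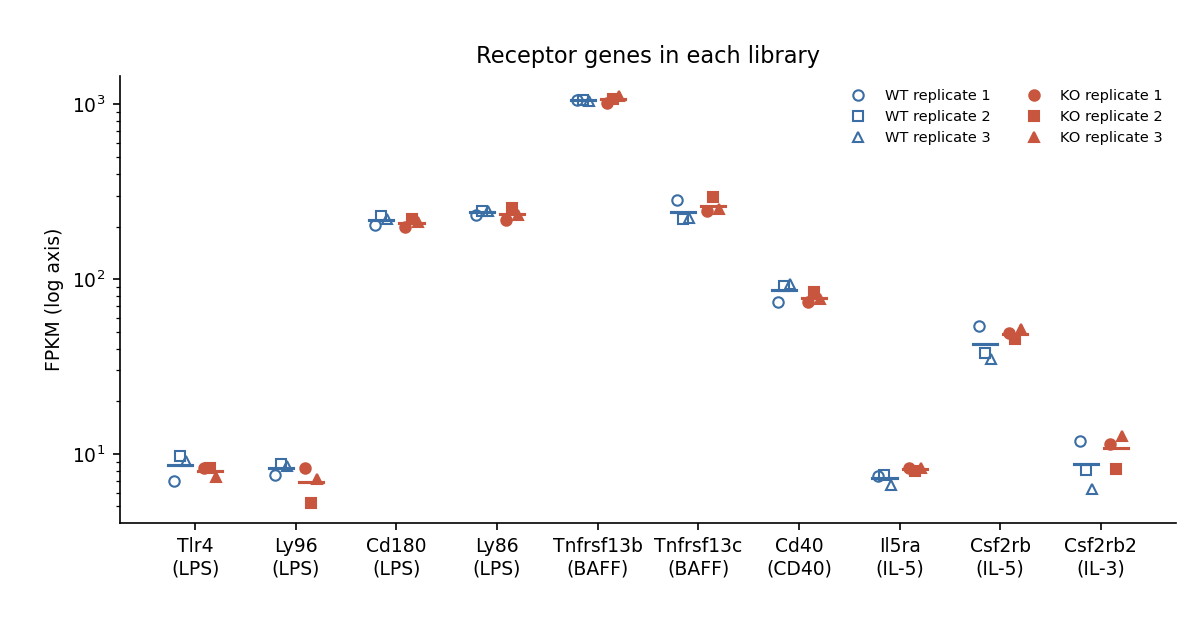
Level of each receptor gene in FPKM (y axis, log scale) in every library. WT libraries are open blue and KO libraries filled red symbols, the symbol shape gives the replicate number and short bars are group means; levels run from 5.26 FPKM (*Ly96*, KO replicate 2) to 1118 FPKM (*Tnfrsf13b*, KO replicate 3), and WT and KO overlap for every gene except *Il5ra*.

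Levels of different genes depended on the gene length behind each FPKM value. The length was recovered from the values themselves, which are whole reads divided by length and depth, and for 6 of the 10 genes it equalled the mean length of the annotated transcripts to within 1 base. For TACI that length was 864 bases, whereas its longest annotated coding transcript has 2556 bases, and for *Cd40* the lengths were 1085 and 2986 bases. For *Tnfrsf13c*, by contrast, 1945 of 1983 bases were used. Recomputed per kilobase of the longest coding transcript and M reads, a choice made after the lengths were seen, *Tnfrsf13b* still stood highest at 359.2 ± 10.95 and *Tnfrsf13c* followed at 248.0 ± 29.8 (SD, n = 6). On this scale *Ly86* stood at 209.3 ± 11.8 and *Cd180* at 100.6 ± 5.39, with ranges that no longer overlapped. *Csf2rb* at 44.1 ± 7.32 then passed *Cd40* at 29.9 ± 3.17, though the lowest *Csf2rb* value (34.12) and the highest *Cd40* value (34.04) nearly touched. At the bottom *Csf2rb2* read 9.47 ± 2.50, *Ly96* 6.91 ± 1.18, *Il5ra* 5.44 ± 0.447 and *Tlr4* 3.60 ± 0.446, so that *Tlr4* moved below all the others. A gene's length is the same in every library, so it enters the comparison of WT and KO only through the pseudocount of 1, which shrinks the changes of low genes. With a pseudocount of 0.1 the change of *Ly96*, among the lowest of the set, was −0.27 in place of −0.24.

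**Figure D2:**
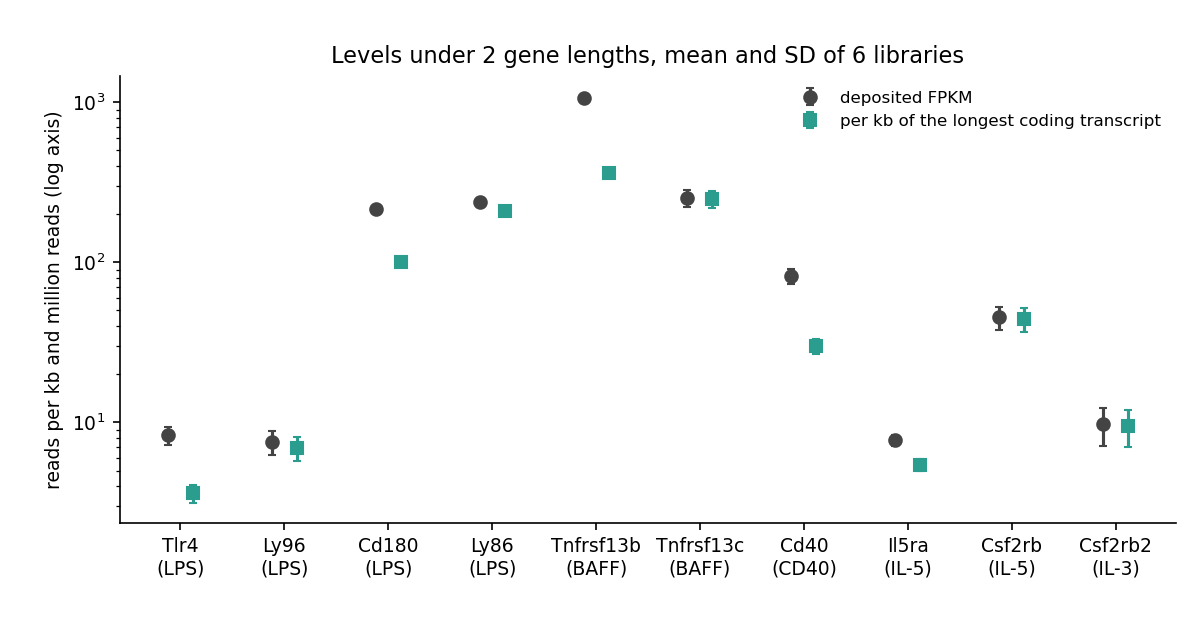
Mean level of each receptor gene over 6 libraries (log axis, reads per kilobase and M reads) as deposited in FPKM (grey circles) and per kilobase of the longest coding transcript (green squares), with SD bars. *Tnfrsf13b* falls from 1063 to 359.2 and *Cd40* from 82.4 to 29.9, whereas *Tnfrsf13c*, *Csf2rb* and *Csf2rb2* hardly move.

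The WT and KO comparison asks whether loss of HIF-1α, the oxygen-regulated transcription factor subunit, left B cells with other amounts of the receptors for the signals they were switched with. None of the 10 receptor genes passed the test for a difference between genotypes. In limma on log2(FPKM + 1) with Benjamini-Hochberg adjustment over 13312 genes, 0 receptor genes were called at an adjusted p under 0.05, beside 0 of all genes (0%). At an unadjusted p under 0.05 there were also 0 receptor genes, beside 929 of all genes (6.98%, with 2.48% higher and 4.5% lower in KO), and limma voom on the recovered reads called 0 receptor genes as well. The paper, with DESeq on counts and the same adjusted threshold, reported differentially expressed genes between KO and WT cells, with glycolysis genes reduced. The 0 of all genes belongs to the limma fit used here. The changes, given throughout as KO minus WT on the log2(FPKM + 1) scale, were positive for 5 genes and negative for 5, from −0.24 (*Ly96*) to 0.29 (*Csf2rb2*), with a median of −0.016 against −0.028 over all genes tested. The 95% interval lay within ±0.5 for 7 of the 10 genes and within ±1 for all 10. A change of 1 unit on this log2(FPKM + 1) scale, in either direction, was thus outside every interval. For low genes 1 such unit is more than a 2-fold change in FPKM, because of the pseudocount. Groups did not overlap for 1 gene, *Il5ra*, higher in KO, where 10.1% of all genes tested did not overlap, 4.06% with KO higher and 6.03% with KO lower.

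**Figure D3:**
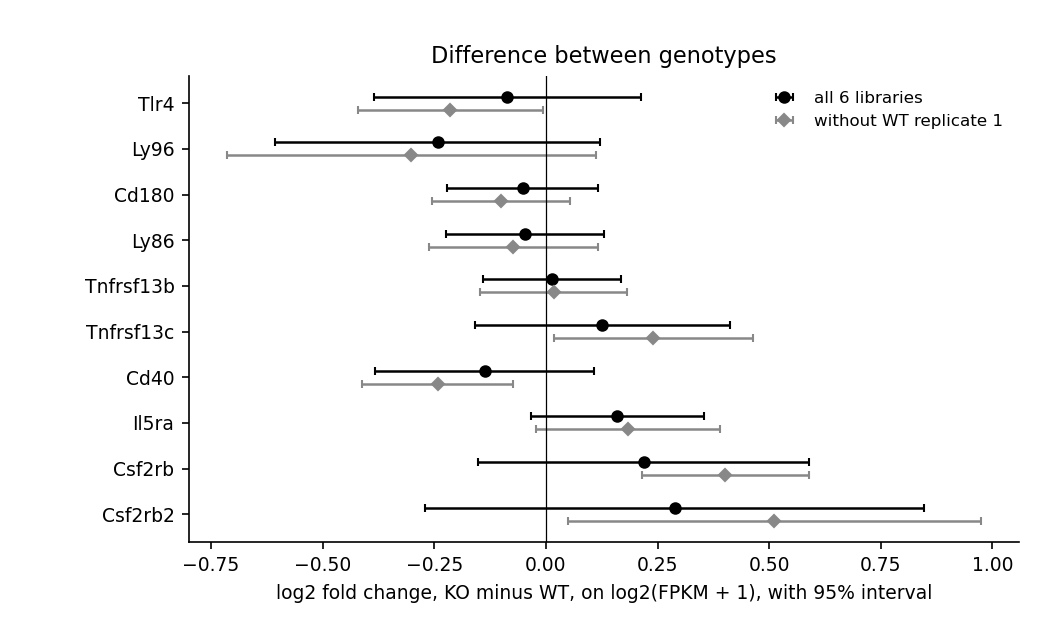
Log2 fold change of each receptor gene, KO minus WT on the log2(FPKM + 1) scale (x axis), with its 95% interval from limma, for all 6 libraries (black) and without WT replicate 1 (grey). With all libraries every interval spans 0, and without WT replicate 1 those of *Tlr4* and *Cd40* lie below 0 and those of *Tnfrsf13c*, *Csf2rb* (0.21 to 0.59) and *Csf2rb2* above it, with *Csf2rb* alone past the adjusted threshold.

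The LPS receptor pair was low, and the genotypes overlapped in both genes. *Tlr4* (ENSMUSG00000039005, chr4:66827584-66930284, plus strand) was at 6.97, 9.77 and 9.03 FPKM in WT replicates 1, 2 and 3 and at 8.27, 8.24 and 7.40 FPKM in KO replicates 1, 2 and 3. The KO values lay inside the WT range, and the change was −0.086 (SE 0.13, 95% interval −0.39 to 0.21, adjusted p = 0.809 in limma). *Ly96* (ENSMUSG00000025779, chr1:16688051-16709611, plus strand), the MD-2 chain without which TLR4 does not bind LPS, read 7.51, 8.75 and 8.49 FPKM in WT and 8.32, 5.26 and 7.15 FPKM in KO. KO replicate 2 was the lowest library and rested on 104 reads, with an exact Poisson 95% interval of 4.29 to 6.37 FPKM that covers counting error only, while the other KO libraries reached into or near the WT range. The change of *Ly96* was −0.24 (SE 0.15, 95% interval −0.61 to 0.12, adjusted p = 0.646). Without KO replicate 2 it was −0.083. *Tlr4* and *Ly96* were both highest in WT replicates 2 and 3, the libraries with the highest macrophage and monocyte marker sums. Of those 15 markers, 4 were lower and 0 higher in all KO libraries. Of all genes tested, 6.03% were lower and 4.06% higher in this way. *Csf1r*, *C1qb* and *C1qc*, among these 4, were too low to be tested, so the count and the shares cover unlike sets of genes. *Lyz2* was at 6.18, 58.3 and 26.2 FPKM in WT and 0.5996, 2.23 and 3.70 FPKM in KO, and *Csf1r*, *C1qb* and *C1qc* at most 1.60 FPKM. *Cd5l* went the other way, at 15.1, 5.62 and 7.28 FPKM in WT and 16.6, 11.4 and 31.0 FPKM in KO. The largest marker, *Adgre1*, overlapped between groups, at 55.5 to 91.1 FPKM. *Cd14*, the LPS co-receptor of monocytes, was at most 1.05 FPKM in any library. What these cells add to *Tlr4* and *Ly96* was not tested.

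The RP105 pair was far more abundant and among the steadiest of the set. *Cd180* (ENSMUSG00000021624, chr13:102693558-102739629, plus strand) stood at 203.5, 228.9 and 222.1 FPKM in WT and 199.0, 219.6 and 212.3 FPKM in KO. *Ly86* (ENSMUSG00000021423, chr13:37345208-37419036, plus strand), its secreted MD-1 partner, stood at 232.8, 246.2 and 246.1 FPKM in WT and 216.9, 254.1 and 232.3 FPKM in KO. In both genes the groups overlapped widely, and the lowest library was KO replicate 1. The changes were −0.052 for *Cd180* (SE 0.071, 95% interval −0.22 to 0.12, adjusted p = 0.797) and −0.046 for *Ly86* (SE 0.074, 95% interval −0.22 to 0.13, adjusted p = 0.829). Of all 45 pairs among the 10 genes, these partners had the most alike profiles over the 6 libraries, with a root mean square difference of 0.038 between their centred log2 values, a description over 6 libraries that share depth and scaling. Flat genes lie near many others, and genes outside the set lay nearer, *Plekhm2* to *Cd180* (0.0092) and *Xpc* to *Ly86* (0.0092).

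The BAFF receptors were abundant in both genotypes. *Tnfrsf13b* (ENSMUSG00000010142, chr11:61126755-61149372, plus strand) was at 1062, 1063 and 1047 FPKM in WT and 1019, 1067 and 1118 FPKM in KO. This was the steadiest receptor gene, with a coefficient of variation of 3.05% over the 6 libraries and a change of 0.014 (SE 0.065, 95% interval −0.14 to 0.17, adjusted p = 0.945). *Tnfrsf13c* (ENSMUSG00000068105, chr15:82221743-82224369, minus strand), the BAFF-specific receptor, read 282.2, 221.5 and 222.8 FPKM in WT and 243.9, 295.2 and 251.8 FPKM in KO. WT replicates 2 and 3 were the lowest libraries, WT replicate 1 fell among the KO values, and the change was 0.13 (SE 0.12, 95% interval −0.16 to 0.41, adjusted p = 0.719). Leaving out 1 library at a time it ran from 0.043 (KO replicate 2 left out) to 0.24 (WT replicate 1 left out, adjusted p = 0.147).

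*Cd40* (ENSMUSG00000017652, chr2:165055627-165072948, plus strand) was not engaged by any agent the labels name. Its level was 74.3, 91.6 and 93.7 FPKM in WT and 74.0, 83.9 and 76.9 FPKM in KO. WT replicates 2 and 3 were the highest libraries and WT replicate 1 was next to the lowest. The change was −0.14 (SE 0.10, 95% interval −0.38 to 0.11, adjusted p = 0.672), and ran from −0.24 without WT replicate 1 (adjusted p = 0.0807) to −0.077 without WT replicate 3.

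The largest positive changes of the set were those of the IL-3 β chain *Csf2rb2*, the common β chain *Csf2rb* and the IL-5 α chain *Il5ra*, in that order, none past the threshold. *Il5ra* (ENSMUSG00000005364, chr6:106710357-106749037, minus strand), the chain that binds IL-5, was at 7.50, 7.59 and 6.65 FPKM in WT and 8.33, 7.94 and 8.34 FPKM in KO. All KO libraries were above all WT libraries, but the gap between the groups was 0.359 FPKM. The libraries on either side of that gap had overlapping counting intervals, 6.99 to 8.22 FPKM for WT replicate 2 and 7.36 to 8.56 FPKM for KO replicate 2. The change was 0.16 (SE 0.082, 95% interval −0.034 to 0.35, adjusted p = 0.626 in limma), from 435 to 703 reads per library. Eosinophils carry the same receptor, and their 7 markers summed to 0.705 to 2.34 FPKM in WT and 1.504 to 2.42 FPKM in KO. *Siglecf*, the largest of them, was at 0.451 to 1.61 FPKM in WT and 1.26 to 1.88 FPKM in KO, and *Epx*, *Ear1* and *Ear6* were at 0 in every library. What such cells add to *Il5ra* was not tested.

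*Csf2rb* (ENSMUSG00000071713, chr15:78325752-78353847, plus strand), the signalling β chain, was at 53.8, 37.9 and 35.1 FPKM in WT and 49.1, 45.1 and 51.5 FPKM in KO. WT replicate 1 was above every KO library, while WT replicates 2 and 3 were below all of them. The change was 0.22 (SE 0.16, 95% interval −0.15 to 0.59, adjusted p = 0.660). Without WT replicate 3 it was 0.10, and without WT replicate 1 it was 0.40 (SE 0.077, adjusted p = 0.0323), which made *Csf2rb* the only receptor gene called in that fit, where 9.4% of all genes and 3.64% in the same direction were called. *Csf2rb2* (ENSMUSG00000071714, chr15:78282507-78305721, minus strand) lies next to *Csf2rb* on the other strand and varied most, with 11.9, 8.07 and 6.25 FPKM in WT and 11.4, 8.17 and 12.6 FPKM in KO. Its highest library was 2.01 times its lowest, and low and high libraries occurred in both groups. The change of *Csf2rb2* was 0.29 (SE 0.24, 95% interval −0.27 to 0.85, adjusted p = 0.684), and leaving out 1 library at a time it ran from 0.096 (WT replicate 3 left out) to 0.51 (WT replicate 1 left out, adjusted p = 0.138). The transcripts of these closely related genes share 334 stretches of 100 bases, 4.63% of those in *Csf2rb* and 6.82% of those in *Csf2rb2*, so reads could be split between them. WT replicate 1 also had the highest sum of markers of neutrophils (42.0 FPKM), a cell type that uses this β chain. Its sum of macrophage and monocyte markers was the lowest of the 6 libraries (95.2 FPKM). In WT replicate 1 *S100a9* was at 19.9, *S100a8* at 10.9, *Ltf* at 4.50, *Ngp* at 4.27 and *Camp* at 1.81 FPKM, with *S100a9* at 0 in the other 5 libraries. *Ly6g*, *Elane*, *Mpo* and *Csf3r* were at most 0.248 FPKM in any library. The methods describe a sort for follicular B cells before such cultures. What neutrophils add to *Csf2rb* in this library was not tested.

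The place of WT replicate 1 recurred across the set. In 8 of the 10 genes it lay outside WT replicates 2 and 3 on the side of the KO mean, and in 7 it lay within the KO range. The share of all genes placed this way was not counted, so neither count is read as particular to the receptors. The first principal component of all tested genes likewise set WT replicate 1 with the KO libraries. Without WT replicate 1, 5 receptor genes reached an unadjusted p under 0.05 in limma, beside 29.9% of all genes. Groups then did not overlap for 8 of the 10 receptor genes, 4 higher in KO (*Tnfrsf13c*, *Il5ra*, *Csf2rb* and *Csf2rb2*) and 4 lower (*Tlr4*, *Ly96*, *Cd180* and *Cd40*). Of all genes, 50.5% did not overlap in that comparison of 3 KO with 2 WT libraries, 18.4% higher and 32% lower.

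**Figure D4:**
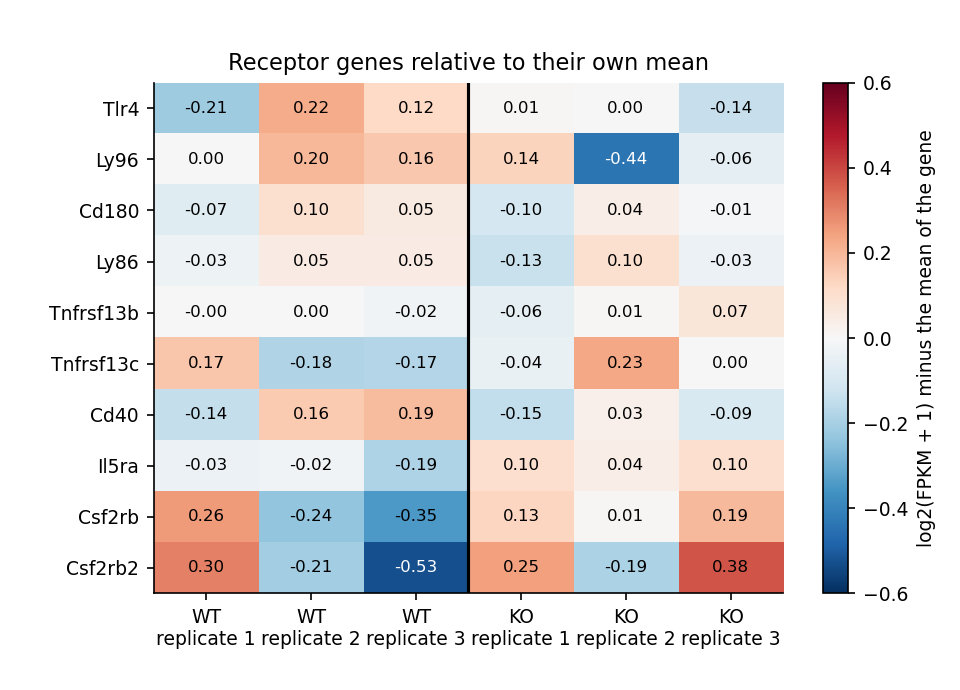
Heat map of each receptor gene's log2(FPKM + 1) minus its own mean over the 6 libraries, with the value in each cell (red, above the mean; blue, below; the line separates WT from KO). The widest spread is in *Csf2rb2*, from −0.53 in WT replicate 3 to 0.38 in KO replicate 3, and the lowest cell outside that gene is *Ly96* in KO replicate 2 (−0.44).

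Partner chains were then set against each other within each library. Scaling of a whole library cancels from the plain ratios quoted below. The tested log2 ratios are differences of log2(FPKM + 1), so the pseudocount lets it cancel only in part, least for low genes. For *Ly96*/*Tlr4* the log2 difference between genotypes was −0.16, and −0.18 with a pseudocount of 0.1. None of the 6 ratios passed an exact two-sided permutation test of the mean log2 ratio, whose smallest possible p with 3 against 3 libraries is 0.1, so the design could not reach 0.05. The exact p-values ran from 0.5 to 0.9 and were 0.9 for every ratio after Benjamini-Hochberg adjustment over the 6 ratios. The MD-1 to RP105 ratio (*Ly86*/*Cd180*) was the tightest, from 1.08 to 1.16 in FPKM, with a log2 difference between genotypes of 0.0055. *Cd180* exceeded *Tlr4* in every library, by 23.4 to 29.2 times in FPKM and by 25.3 to 31.5 times per longest coding transcript. MD-2 to TLR4 (*Ly96*/*Tlr4*) was 0.638 in KO replicate 2 and 0.896 to 1.08 in the other libraries in FPKM, and its mean moved from 0.920 ± 0.152 to 1.93 ± 0.318 (SD, n = 6) per longest coding transcript. In the same way TACI to BAFF-R (*Tnfrsf13b*/*Tnfrsf13c*) had a mean of 4.25 ± 0.486 in FPKM and 1.46 ± 0.168 per longest coding transcript (SD, n = 6), above 1 in every library on both scales. The β chain exceeded the IL-5 α chain (*Csf2rb*/*Il5ra*) by 4.99 to 7.17 times in FPKM, with WT replicate 1 the highest. *Csf2rb2*/*Csf2rb* was 0.178 to 0.244 in FPKM.

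**Figure D5:**
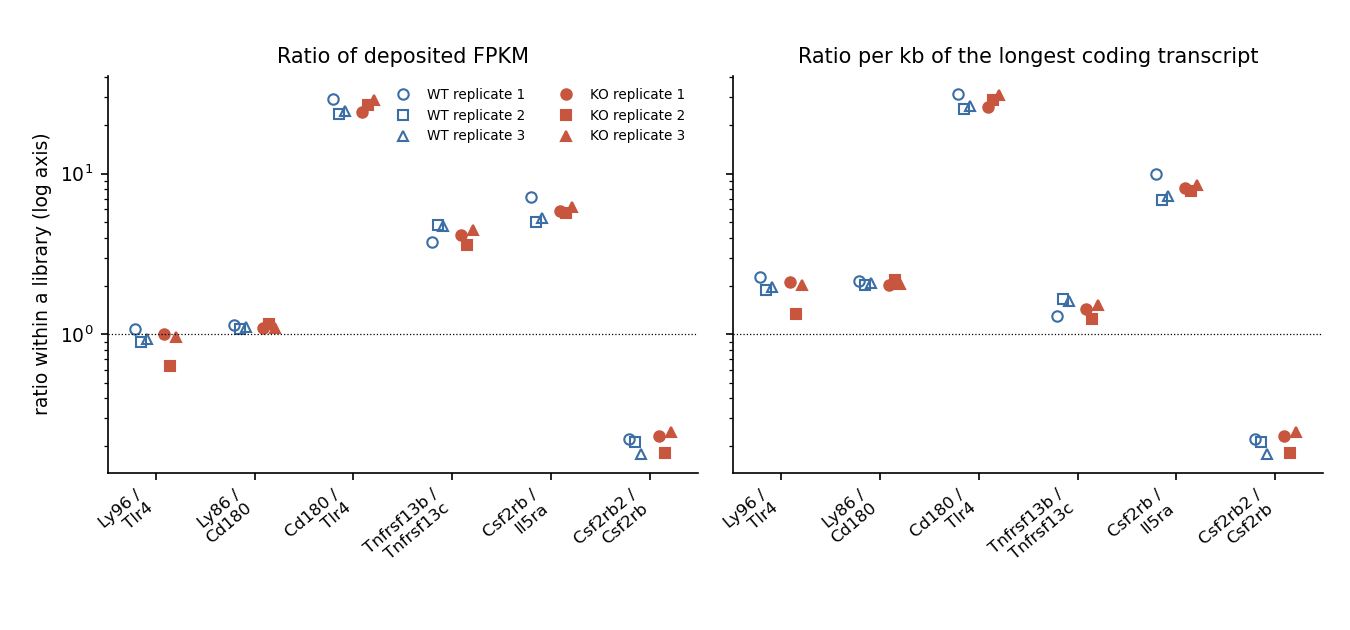
Ratio of partner chains within each library (log axis; dotted line at 1), from the deposited FPKM (left) and per kilobase of the longest coding transcript (right), with WT open blue and KO filled red. The genotypes overlap in every ratio, and the TACI to BAFF-R ratio falls from a mean of 4.25 on the left to 1.46 on the right while staying above 1.

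Genes that act beside or below the receptors were read from 4 lists in the same fit. In each list 0 genes were called, beside 0% of all genes, and their median changes ran from −0.067 to 0.099 against −0.028 over all genes. Of 24 LPS co-receptor, chaperone and signalling genes 22 were tested, 12 with positive and 10 with negative changes, and 1 reached an unadjusted p under 0.05, beside 6.98% of all genes. It was *Cnpy3*, a chaperone that brings Toll-like receptors to the surface, at 93.8, 131.8 and 130.3 FPKM in WT and 88.2, 100.05 and 81.2 FPKM in KO (change −0.39, SE 0.15, adjusted p = 0.626 in limma). The groups overlapped through WT replicate 1. *Myd88*, the adaptor of most Toll-like receptors, was at 20.1 to 24.2 FPKM in WT and 22.5 to 24.9 FPKM in KO (change 0.10, adjusted p = 0.695).

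A list of 12 genes held the other Toll-like receptors and *Unc93b1*, the chaperone that brings the nucleic acid sensors to endosomes. Of these 7 were tested, and *Tlr12* alone had an unadjusted p under 0.05. It was at 4.07 to 5.14 FPKM in WT and 5.73 to 6.35 FPKM in KO (change 0.37, SE 0.10, adjusted p = 0.626). All KO libraries were above WT, as for 4.06% of all genes tested. The nucleic acid sensors *Tlr7* and *Tlr9* stood at 22.3 to 45.0 FPKM and 27.2 to 40.1 FPKM over the 6 libraries, above *Tlr4* in every library on the FPKM scale.

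Of 16 genes for the BAFF and CD40 ligands, BCMA and the noncanonical NF-κB pathway, 13 were tested, with 4 positive and 9 negative changes. Transcripts of the ligands were near zero in the cells, whereas BAFF protein had been added to every culture. BAFF (*Tnfsf13b*) read 0.290 to 0.780 FPKM in WT and 0.558 to 0.972 FPKM in KO, and APRIL (*Tnfsf13*) at most 0.111 FPKM in any library. BCMA (*Tnfrsf17*), the APRIL receptor of plasma cells, was at most 0.179 FPKM. *Traf5*, a signalling adaptor of CD40, had the only unadjusted p under 0.05, with 21.2 to 23.4 FPKM in WT and 23.3 to 32.0 FPKM in KO (change 0.28, SE 0.12, adjusted p = 0.626). *Nfkb2*, the precursor that BAFF-R and CD40 signalling processes to p52, was at 61.8, 128.9 and 133.5 FPKM in WT and 64.6, 73.0 and 59.8 FPKM in KO. WT replicate 1 sat among the KO values, and the change was −0.63 (SE 0.29, adjusted p = 0.626 in limma). Without that library the change was −0.99 (adjusted p = 0.00494 in limma), in a fit that called 9.4% of all genes. *Traf3*, which holds the pathway off at rest, gave a change of −0.32 (SE 0.15, adjusted p = 0.626) and −0.47 without WT replicate 1 (adjusted p = 0.0325), while *Relb*, the partner of p52, gave −0.10 and −0.17 (adjusted p = 0.690 and 0.202).

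Of 19 genes for the IL-5 family ligands, sister α chains and signalling 16 were tested, 10 with positive and 6 with negative changes, and 0 reached an unadjusted p under 0.05. The sister α chains of IL-3 and GM-CSF, which compete for the same β chain, exceeded *Il5ra* in every library in FPKM. *Il3ra* was at 19.6 to 24.8 FPKM in WT and 19.3 to 25.5 FPKM in KO (change 0.047, adjusted p = 0.900), and *Csf2ra* at 24.4 to 25.8 and 22.8 to 27.1 FPKM (change −0.050, adjusted p = 0.832). *Stat5a* and *Stat5b*, the transcription factors below these receptors, gave changes of −0.12 and −0.0095 (adjusted p = 0.693 and 0.968). Without WT replicate 1, 11 genes of the 4 lists were called, in a fit that called 9.4% of all genes. Of the genes tested these were 4 of 22 in the LPS list and 1 of 7 in the Toll-like receptor list. In the BAFF and CD40 list they were 3 of 13, and in the IL-5 list 3 of 16. In KO *Acod1*, *Cnpy3*, *Map3k7*, *Nfkb2*, *Traf1* and *Traf3* were then lower and *Irak2*, *Tlr12*, *Lyn*, *Pim1* and *Socs2* higher, named for that call alone. With all libraries 0 of these 11 were called.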

How the data were processed

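Bulk RNA-seq was analysed from 6 libraries (3 WT, 3 KO), grouped by the sample labels. The authors aligned filtered paired-end reads to mm10 (GRCm38) with TopHat, counted reads per gene with HTSeq, divided by gene length and mapped reads and deposited FPKM values. Annotation release, strand option and handling of multiply aligned reads are not given in the sources used here. Names and coordinates came from GENCODE vM21 (46488 of 46983 gene IDs matched, 495 did not). All sample columns were used, and 0 pairs of libraries were identical.

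The receptor genes and the 4 pathway lists were chosen with earlier results of these data known. Because the deposited values are FPKM and not counts, genotypes were compared with limma 3.58.1 (R 4.3.3; lmFit, eBayes with trend) on log2(FPKM + 1) over 13312 genes whose mean FPKM reached 0.5, without covariates, with Benjamini-Hochberg adjustment and a threshold of 0.05. This fit was tested on simulated data. Reads were recovered from FPKM as whole multiples (94.8 to 95.2% of low values whole within 0.01 read) and used for lengths, Poisson intervals and voom. Ratios were tested by exact permutation over 20 arrangements, two-sided. Named from each list were genes at an unadjusted p under 0.05, up to the 3 smallest, and *Cd14*, *Tnfrsf17*, *Il3ra*, *Csf2ra*, *Traf3*, *Nfkb2*, *Relb*, *Myd88*, *Stat5a*, *Stat5b*, *Tnfsf13b* and *Tnfsf13*. *Tlr7*, *Tlr9* and genes called only without WT replicate 1 were named after their values were seen. Alternatives covered pseudocount, filter, scaling, immunoglobulin reads, variance model, replicate block, each library left out and voom. Tables were made with numpy 2.4.6 and pandas 2.3.3 in Python 3.11.15, and plots with matplotlib 3.10.9.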

Additional observations from a re-analysis of the deposited data

How the results depend on the processing

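Over 16 alternatives, 155 of 160 fold changes of the receptor genes kept their direction and their side of the threshold, 4 changed sign and 1 passed the threshold. With 1 library left out *Tlr4* lay between −0.21 (WT replicate 1 left out) and 0.0031 (WT replicate 2 left out), *Ly86* from −0.11 (without KO replicate 2) to 0.0081 (without KO replicate 1) and *Tnfrsf13b* from −0.019 (without KO replicate 3) to 0.047 (without KO replicate 1), and *Tnfrsf13b* was −0.021 under quantile normalization. *Csf2rb* was 0.40 (adjusted p = 0.0323) without WT replicate 1 and 0.10 without WT replicate 3. Leaving out 1 library at a time gave 0 to 1251 called genes, 0 to 1 called receptor genes and 0 to 11 called genes of the lists, the highest of each without WT replicate 1, and 1 gene was called without KO replicate 1. The log2 differences of partner ratios with 1 library left out ran from −0.26 to 0.025 for *Ly96*/*Tlr4*, −0.022 to 0.028 for *Ly86*/*Cd180*, −0.020 to 0.11 for *Cd180*/*Tlr4*, −0.22 to −0.028 for *Tnfrsf13b*/*Tnfrsf13c*, −0.035 to 0.22 for *Csf2rb*/*Il5ra* and −0.0051 to 0.19 for *Csf2rb2*/*Csf2rb*. Every other alternative called 0 genes. The cause of these shifts was not tested.

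WT and KO share replicate numbers, but the deviations of same-numbered libraries correlated at −0.099, 0.14 and −0.28, so the numbers were not taken to pair them. With the replicate number as a block 0 genes and 0 receptor genes were called, with 694 genes at an unadjusted p under 0.05 against 929 without the block.

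With 104 to 161 reads per library on *Ly96*, and 367 to 536 on *Tlr4*, counting error limits these genes most. The median of all genes stayed within −0.050 to 0.0019 under every alternative.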

Other observations

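Marker sums that were not set beside a receptor gene above also differed between libraries. The 7 plasma cell markers summed to 1407, 938.9 and 892.9 FPKM in WT replicates 1, 2 and 3 and to 1346, 999.4 and 1732 FPKM in KO, led by *Mzb1* at 494.1 to 826.1 FPKM. The 8 T-cell markers summed to 94.4 to 143.2 FPKM, nearly all of it from *Lck*, a kinase also expressed in B cells, which was at 90.1 to 131.3 FPKM in WT and 133.4 to 136.9 FPKM in KO (adjusted p = 0.626 in limma). Sums were 234.8 to 266.1 FPKM for 6 marginal zone B-cell markers, 404.5 to 538.9 FPKM for 6 B-1 cell markers and 75.8 to 118.4 FPKM for 8 dendritic cell markers. They were 2.23 to 6.80 FPKM for 7 basophil and mast cell markers and 1.02 to 2.50 FPKM for 6 NK and innate lymphoid cell markers.

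The coding genes whose library profiles lay nearest those of the receptors were ranked by the root mean square difference of centred log2 values over 6 libraries, among 10909 genes. *Cd40* lay nearest *Birc3* (0.024), an inhibitor of apoptosis protein that binds TRAF adaptors. *Il5ra* lay nearest *Ginm1* (0.024), *Csf2rb* nearest *Larp1b* (0.028), *Tlr4* nearest *Cenpk* (0.027), *Ly96* nearest *Kdm5c* (0.023) and *Tnfrsf13c* nearest *Bin2* (0.028). *Cd180* lay nearest *Plekhm2* (0.0092), *Ly86* nearest *Xpc* (0.0092), *Tnfrsf13b* nearest *Ctnnb1* (0.014) and *Csf2rb2* nearest *1700017B05Rik* (0.071). These libraries share depth and scaling, the likeness is a description, and flat genes lie near many others.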
